A study of Mus musculus with 6 samples.

Results

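The genes described here are 9 members of the RGS family (regulators of G-protein signalling): Rgs2, Rgs4, Rgs6, Rgs7, Rgs8, Rgs10, Rgs14, Rgs16 and Rgs17. They were chosen by symbol from the 37620 genes listed in the expression table, and all 9 passed the filter on low values that kept 16127 genes for testing. RNA Seq was performed on the PLc (pre-limbic cortex, a medial part of the prefrontal cortex) of C57Bl/6 mice aged 9 weeks, with a library for each mouse. A group of 3 mice had received saline (mice 1, 6 and 10) and a group of 3 had received ketamine, an NMDA receptor antagonist, at 30 mg/kg (mice 3, 5 and 9). Injections were intraperitoneal, once a day for 5 days, and in both groups the tissue was taken 2 days after the last of them. Levels are in normalized counts, which are read counts per gene divided by a size factor of the library. The question asked of these genes was whether their expression in PLc differed between ketamine and saline mice.

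RGS proteins shorten signals from G-protein-coupled receptors. A receptor that binds its transmitter loads GTP onto the alpha subunit of a G protein, and the RGS domain speeds the hydrolysis of that GTP, so that the alpha and beta-gamma subunits reassemble and signalling stops. In cortex and striatum they act on receptors for dopamine, acetylcholine, noradrenaline, serotonin, glutamate and opioids, and the subfamilies differ in the alpha subunits they favour and in the domains they carry beside the RGS domain. The R4 subfamily (Rgs2, Rgs4, Rgs8 and Rgs16 here) holds small proteins with little beyond the RGS domain. R7 proteins (Rgs6 and Rgs7) are stable only in a complex with the beta subunit Gnb5, the R12 subfamily holds Rgs10 and Rgs14, and Rgs17 belongs to the RZ subfamily.

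The libraries held between 26273436 and 32643726 reads. The lowest count of any of the 9 genes in a library was 226 reads (Rgs16), for which counting alone gives an error of 6.65%. Labelled tissue was checked against marker lists, and 4 lists stood apart in particular mice. Summed markers of cortical excitatory neurons (7 genes, among them Slc17a7, the vesicular glutamate transporter) were present in every library, at 50056 to 70919 normalized counts in saline mice and 29317 to 53416 in ketamine mice. Markers of striatal projection neurons (19 genes) had sums of 16970 to 18474 in the saline group, and of 93742, 50108 and 16587 in ketamine mice 3, 5 and 9, with Isl1 at 0 in saline mice 1 and 6 and Six3 at 0 in those mice and in ketamine mouse 9. Olfactory bulb markers (8 genes, none at 0) had sums of 286 to 921 in the saline group and of 2698, 1793 and 12615 in ketamine mice 3, 5 and 9. The sum of 921 was that of saline mouse 10, where Th alone had 611. Oligodendrocyte markers (5 genes) summed to 316875 in saline mouse 10, against 48775 and 38342 in saline mice 1 and 6 and 88494 to 136944 in ketamine mice. In dissected tissue a change in the share of a cell type and a change in RNA per cell cannot be told apart.

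**Figure D1:**
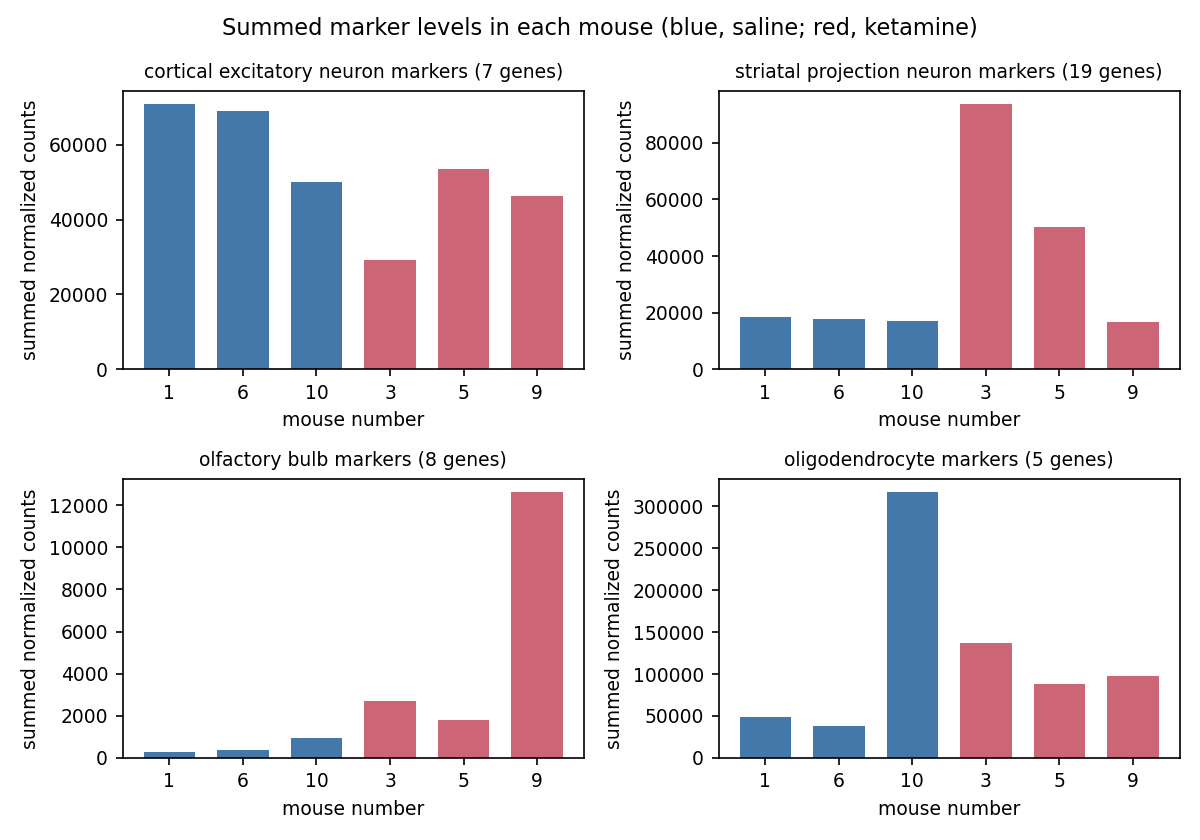
Summed normalized counts (vertical axis) of 4 marker lists in each mouse (horizontal axis, mouse number), with saline mice in blue and ketamine mice in red. Ketamine mouse 3 was highest for striatal markers at 93742, ketamine mouse 9 for olfactory bulb markers at 12615 and saline mouse 10 for oligodendrocyte markers at 316875.

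Rgs4 was the most abundant RGS gene of the PLc. To compare genes, normalized counts were divided by the length of their exons in kilobases (kb), since longer genes collect more reads. On this scale Rgs4 had 5358 ± 2583 normalized counts per kb in saline mice (SD, n = 3) and 3953 ± 939.8 in ketamine mice (SD, n = 3). Rgs7 was next in order, at 1375 ± 317 in saline mice. Rgs14 followed at 655 ± 62.6, Rgs8 at 453 ± 29.6, Rgs2 at 377 ± 7.27, Rgs10 at 345 ± 72.9, Rgs6 at 304 ± 78.3 and Rgs17 at 289.7 ± 37.3, and Rgs16 came last at 107 ± 17.5 normalized counts per kb (saline, SD, n = 3 each). Of the 8 pairs of neighbours in this order, 5 had saline ranges that did not overlap. The ranges of Rgs2 and Rgs10, of Rgs10 and Rgs6, and of Rgs6 and Rgs17 overlapped, so their order was not separated by the spread between mice. In ketamine mice Rgs4, Rgs7 and Rgs14 again led without overlap between neighbours, and the other 5 neighbouring pairs overlapped. Dividing by the longest transcript in place of all exons kept the first 3 and the last 2 genes of the saline order and moved Rgs10 up to the fourth place.

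The 9 genes supplied most of the RGS message measured. Of the summed level per kb over all 21 RGS genes listed, they made up 78.3% to 87.1% in saline mice and 76.7% to 85.3% in ketamine mice, and the groups overlapped. Rgs4 alone gave 54.5%, 54.0% and 31.3% of the sum in saline mice 1, 6 and 10, against 32.7%, 41.4% and 51.0% in ketamine mice 3, 5 and 9. Outside the 9 genes, Rgs5, a gene of pericytes, was the most abundant in saline mice at 786 ± 5.49 normalized counts per kb (SD, n = 3), and Rgs21 was listed at 0 in every library.

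**Figure D2:**
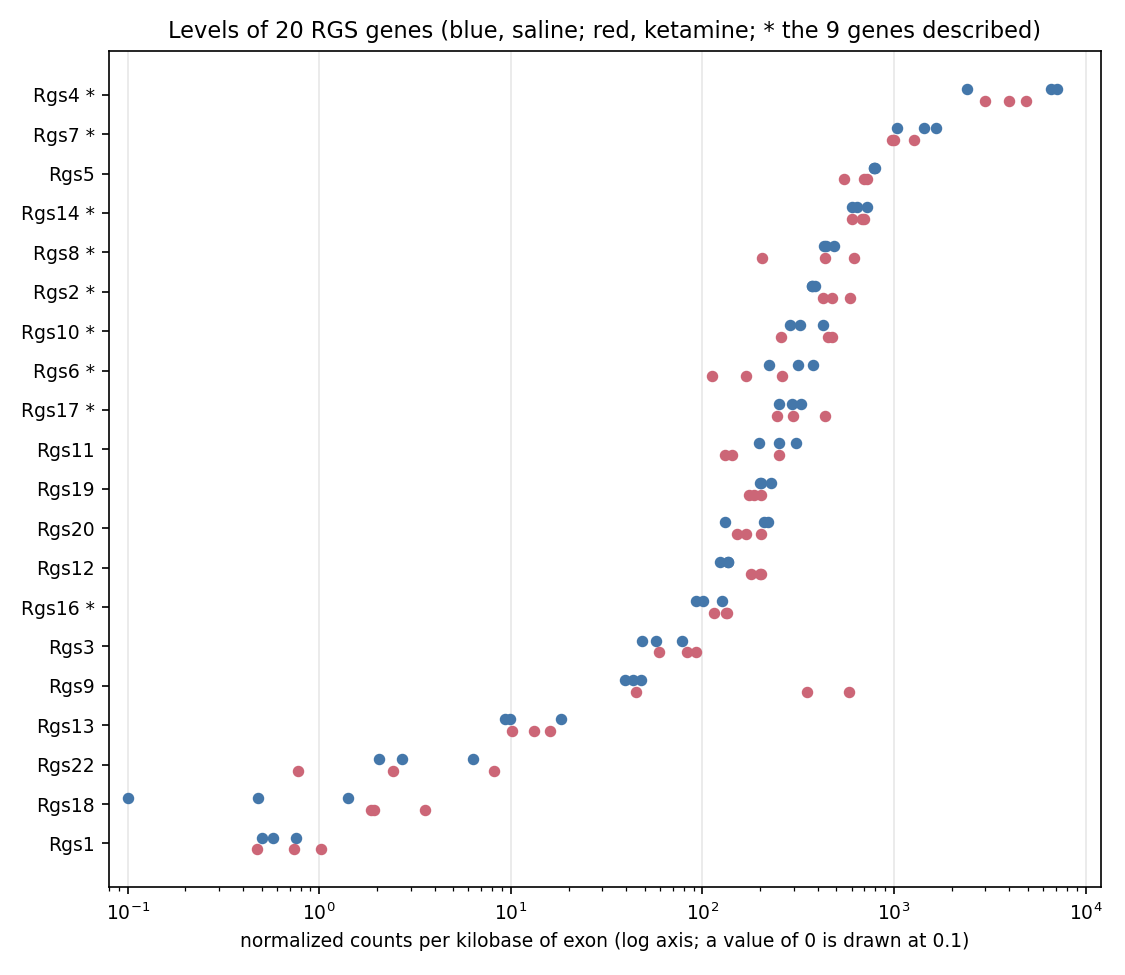
Normalized counts per kilobase of exon (horizontal log axis) for 20 RGS genes, each point a mouse, with saline mice in blue and ketamine mice in red and a star on the 9 genes described; a value of 0 is drawn at 0.1. Rgs4 leads in both groups, with saline mice between 2388 and 7082 and ketamine mice between 2991 and 4869, and Rgs9 is spread from 45.0 to 585 in ketamine mice.

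None of the 9 genes passed the test between ketamine and saline. At an adjusted p under 0.05, limma called 0 of the 9 and 0.0% of all 16127 genes tested, edgeR called 0 of the 9 and 0.0% of all genes, and DESeq2 called 0 of the 9 and 1.13% of all genes. At an unadjusted p under 0.05, limma found 2 of the 9 against 5.81% of all genes, Rgs2 with a positive ratio (3.44% of all genes) and Rgs6 with a negative one (2.37%), DESeq2 found the same 2 against 6.54%, and edgeR found Rgs2 against 6.24%. The ketamine mice lay entirely above the saline mice for 1 of the 9 genes, against 5.69% of all genes, and entirely below for 0 of the 9, against 4.66%. The log2 ratio of ketamine to saline was above 0 for 5 of the 9 and below 0 for 4. Its median was 0.01, beside -0.01 over all genes tested. With 3 mice against 3, no gene can reach a p below 0.1 in an exact permutation test.

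**Figure D3:**
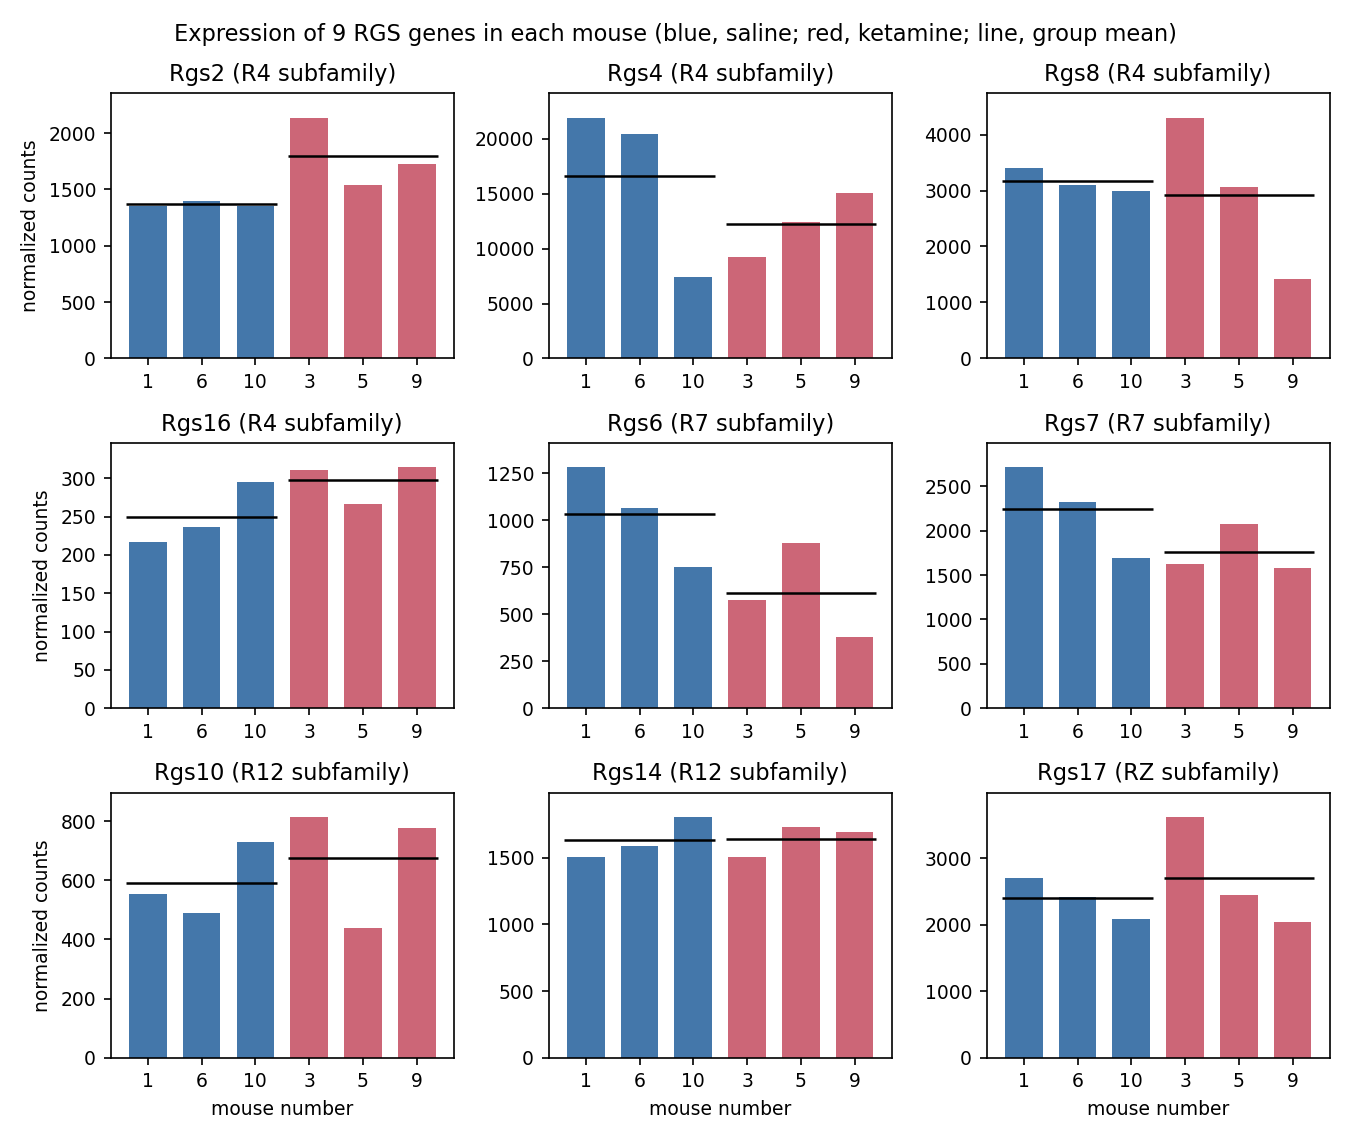
Normalized counts (vertical axes from 0) of the 9 RGS genes in each mouse (horizontal axis, mouse number), with saline mice in blue, ketamine mice in red and the group mean as a line. Rgs2 is the gene whose groups do not overlap, with saline mice at 1349 to 1396.5 and ketamine mice at 1537 to 2137, while Rgs4 is lowest in saline mouse 10 at 7399 and Rgs8 in ketamine mouse 9 at 1420.4.

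Rgs2 (ENSMUSG00000026360) encodes a regulator that favours Gq, the G protein of receptors that raise calcium through phospholipase C, and is induced by neuronal activity. Normalized counts were 1354, 1396.5 and 1349 in saline mice 1, 6 and 10, while ketamine mice 3, 5 and 9 had 2137, 1537 and 1725. Every ketamine mouse was thus above every saline mouse, and the saline mice were close together. Their highest value was 1.04 times the lowest, a ratio smaller than that of all but 2.28% of the genes tested. The means were 1366 ± 26.4 in saline and 1799.7 ± 307 in ketamine (SD, n = 3 each), a log2 ratio of 0.38 (SE 0.15, 95% interval 0.03 to 0.74, unadjusted p = 0.0368, limma adjusted p = 0.811). The exact permutation p was 0.1. DESeq2 gave 0.40 (adjusted p = 0.568) and edgeR gave 0.42 (adjusted p = 0.724). Ketamine mouse 3 was the highest, and without it the log2 ratio was 0.25; with the other mice left out in turn it lay between 0.37 and 0.49. Striatal markers were highest in mouse 3 and olfactory bulb markers in mouse 9, and their part in this difference was not tested. Without mouse 9 the log2 ratio of Rgs2 was 0.41.

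Rgs4 (ENSMUSG00000038530) acts on Gi/o and Gq and is known as an abundant cortical regulator whose protein is short-lived. Its expression was 21939.9, 20455 and 7399 normalized counts in saline mice 1, 6 and 10, against 9267, 12385 and 15085 in ketamine mice 3, 5 and 9. Saline mouse 10 was below every ketamine mouse, and saline mice 1 and 6 were above every ketamine mouse. The highest saline value was 2.96 times the lowest, a wider ratio than that of 95.1% of genes tested. The log2 ratio was -0.31 (SE 0.42, 95% interval -1.31 to 0.68, limma adjusted p = 0.999, exact permutation p = 0.6). Single mice of both groups moved this value. Without saline mouse 10 the log2 ratio was -0.82 (unadjusted p = 0.0106, limma adjusted p = 0.301), without saline mouse 1 it was -0.04 and without saline mouse 6 it was -0.09. It was -0.13 without ketamine mouse 3, -0.34 without ketamine mouse 5 and -0.48 without ketamine mouse 9. Mouse 10 was also the saline mouse with the most oligodendrocyte marker counts, 316875, and the lowest sum of cortical excitatory markers, 50056. The 7 excitatory markers did not all follow their sum. The highest saline mouse was mouse 10 for 2 of them (Neurod6 and Neurod2), mouse 1 for 4 and mouse 6 for 1. The part of either marker list in the low Rgs4 value was not tested.

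Rgs8 (ENSMUSG00000042671), which acts on Gi/o and is known for speeding the gating of potassium channels opened by beta-gamma subunits, was even among saline mice, at 3394, 3097 and 2996 normalized counts in mice 1, 6 and 10. Ketamine mice 3, 5 and 9 had 4303, 3062 and 1420.4, so the highest and the lowest of the 6 values were both in ketamine mice. This spread of 3.03 times exceeded that of 93.4% of genes tested. The log2 ratio was -0.25 (SE 0.37, 95% interval -1.12 to 0.62, limma adjusted p = 0.999), and it ranged from -0.60 without mouse 3 to 0.20 without mouse 9. The order of the ketamine mice was that of the summed striatal markers, 93742, 50108 and 16587, whose part was not tested.

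Rgs16 (ENSMUSG00000026475), an inducible regulator of Gi/o and Gq, was the least abundant of the 9. It had 216, 236 and 295 normalized counts in saline mice 1, 6 and 10, against 311, 267 and 315 in ketamine mice 3, 5 and 9. Saline mouse 10 lay above ketamine mouse 5, and the other values were separated by group. Its log2 ratio was 0.26 (SE 0.18, 95% interval -0.15 to 0.68, limma adjusted p = 0.999, exact permutation p = 0.2), and it was 0.17 without saline mouse 1 and 0.39 without saline mouse 10.

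All 4 of these R4 genes lie on chromosome 1, which carries 5 of the 9 genes. In the mm9 genome Rgs2 runs from 145846468 to 145851291 on the minus strand, Rgs8 from 155500155 to 155544797 and Rgs16 from 155587479 to 155592598 on the plus strand, and Rgs4 from 171671608 to 171677773 on the minus strand. Rgs8 and Rgs16 are 42.7 kb apart with 0 coding genes between them, and Rgs4 is 45.7 kb from Rgs5. None of the 9 genes shares exon bases with another annotated gene. The neighbours Rgs8 and Rgs16 differed in pattern, since across the ketamine mice, mouse 9 was the lowest for Rgs8 and the highest for Rgs16.

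Rgs2, Rgs4 and Rgs8 are also the members with the letters TGACG, the core letters of the cAMP response element, in the 250 bases before their RefSeq start. The RefSeq starts differ from the gene coordinates above for Rgs2 and Rgs8, whose windows reach into the spans given there. Promoter windows of 8 members were found in RefSeq (GRCm38.p6), all but that of Rgs14, and the 3 windows below, of which that of Rgs8 is the one of its 3 windows with these letters, were matched letter for letter to mm9. They are shown because they hold these letters in the member whose groups did not overlap, in the most abundant member and in the member with the widest spread in ketamine mice. Each is written 5′ to 3′ on the strand of its gene, with TGACG, or CGTCA where the letters lie on the other strand, and TATAAA in capitals.
Rgs2 promoter, mm9 chr1:145851280-145851529, minus strand: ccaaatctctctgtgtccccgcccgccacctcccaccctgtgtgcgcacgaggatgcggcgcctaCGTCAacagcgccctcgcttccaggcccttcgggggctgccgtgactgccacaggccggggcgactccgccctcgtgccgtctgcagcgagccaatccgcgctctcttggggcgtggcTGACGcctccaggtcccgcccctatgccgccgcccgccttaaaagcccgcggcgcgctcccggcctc
Rgs4 promoter, mm9 chr1:171677774-171678023, minus strand: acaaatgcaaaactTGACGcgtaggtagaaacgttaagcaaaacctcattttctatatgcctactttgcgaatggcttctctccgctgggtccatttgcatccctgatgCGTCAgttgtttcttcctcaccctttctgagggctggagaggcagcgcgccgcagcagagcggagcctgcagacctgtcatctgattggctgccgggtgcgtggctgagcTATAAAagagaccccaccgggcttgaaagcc
Rgs8 promoter, mm9 chr1:155499917-155500166, plus strand: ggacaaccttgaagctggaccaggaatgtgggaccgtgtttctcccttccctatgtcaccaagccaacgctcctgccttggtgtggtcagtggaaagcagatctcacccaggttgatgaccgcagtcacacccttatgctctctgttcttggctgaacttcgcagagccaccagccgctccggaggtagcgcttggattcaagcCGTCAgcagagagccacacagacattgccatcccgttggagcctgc
The motifs searched, on both strands, were TGACG, the full element TGACGTCA, which contains it, and TATAAA. The first was found in 17.8% of the 32851 RefSeq windows of this length, the full element in 1.55% and in 0 of the 8 members, and the TATA motif in 12.4% and in Rgs4 alone among the members. These shares are of single windows. The 8 members have 10 windows, and a member was counted, as were the 3 with TGACG, if any of its windows held the letters. The Rgs2 and Rgs4 windows hold the 5-letter motif 2 times each and the Rgs8 window 1 time, and the Rgs2 window is 72.4% G or C, against 53.6% for Rgs4 and 57.2% for Rgs8. A match of letters is a description of the window and not a measured site. The 3 genes differed in pattern, since Rgs2 was higher in every ketamine mouse and the groups overlapped for Rgs4 and Rgs8.

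Both R7 genes had lower means in ketamine mice, and for neither did the groups separate. Rgs6 (ENSMUSG00000021219, chromosome 12 from 83717912 to 84259755) encodes a regulator of Gi/o known for its control of potassium channels opened by muscarinic and GABA-B receptors. It had 1281, 1064 and 752 normalized counts in saline mice 1, 6 and 10, against 573, 879 and 379.8 in ketamine mice 3, 5 and 9. Ketamine mouse 5 lay above saline mouse 10, and the other 4 values were separated by group. The means were 1032 ± 266 and 610.4 ± 252 (SD, n = 3 each), a log2 ratio of -0.81 (SE 0.33, 95% interval -1.58 to -0.03, unadjusted p = 0.0432, limma adjusted p = 0.851, exact permutation p = 0.2). This was the largest log2 ratio in size among the 9 genes, and with single mice left out it ranged from -1.11 without ketamine mouse 5 to -0.51 without ketamine mouse 9. DESeq2 gave -0.75 with an adjusted p of 0.579 for all mice. Without ketamine mouse 5, DESeq2 gave -1.11 with an adjusted p of 0.0461, which passed the threshold, whereas limma on the same 5 mice gave an adjusted p of 0.451.

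Rgs7 (ENSMUSG00000026527, chromosome 1 from 176989867 to 177421261), an R7 regulator expressed widely in brain, had 2715, 2328 and 1689 normalized counts in saline mice 1, 6 and 10, against 1626, 2078 and 1584 in ketamine mice 3, 5 and 9. As for Rgs6, the order of the mice was saline 1, saline 6, ketamine 5, saline 10, ketamine 3 and ketamine 9. The log2 ratio was -0.33 (SE 0.21, 95% interval -0.82 to 0.15, unadjusted p = 0.151, limma adjusted p = 0.999, exact permutation p = 0.2), and with single mice left out it ranged from -0.52 without saline mouse 10 to -0.18 without saline mouse 1. The level of Rgs7 per kb was 4.40, 4.55 and 4.67 times that of Rgs6 in saline mice 1, 6 and 10, against 5.90, 4.91 and 8.67 times in ketamine mice 3, 5 and 9, so every ketamine ratio was above every saline ratio. This pair was named after its values were seen, and no share of all gene pairs was computed for comparison. The other pairs computed overlapped between the groups, with Rgs4 over Rgs7 at 2.31 to 4.63 in saline and 3.0025 to 5.02 in ketamine mice, and Rgs4 over Rgs16 at 18.9 to 76.5 and 22.5 to 36.2. Among the cortical excitatory markers 7 of 7 genes also had a negative log2 ratio, with a median of -0.77, and their part in the R7 values was not tested.

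The R12 genes gave small differences. Rgs10 (ENSMUSG00000030844, chromosome 7 from 135517135 to 135562272), a short Gi/o regulator known from microglia, had 553, 488 and 729 normalized counts in saline mice 1, 6 and 10, against 813, 437 and 775 in ketamine mice 3, 5 and 9. The groups overlapped, and ketamine mouse 5 had the lowest value of all. The log2 ratio was 0.16 (SE 0.27, 95% interval -0.48 to 0.81, limma adjusted p = 0.999), and with single mice left out it ranged from 0.0015 without ketamine mouse 3 to 0.45 without ketamine mouse 5. Microglia markers, 5 genes with none at 0, had sums of 6785 to 7892 normalized counts in saline mice and 7062 to 7267 in ketamine mice. The highest ketamine mouse was mouse 3 for 1 of these markers, mouse 5 for 2 and mouse 9 for 2. The part of microglia in the Rgs10 values was not tested.

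Rgs14 (ENSMUSG00000052087, chromosome 13 from 55471093 to 55486048), a scaffold that binds Gi alpha subunits through a second domain and is typical of hippocampal area CA2, was the most even of the 9 over both groups. Normalized counts were 1504, 1586 and 1805 in saline mice 1, 6 and 10, while ketamine mice 3, 5 and 9 had 1505, 1729 and 1693. The log2 ratio was 0.01 (SE 0.13, 95% interval -0.30 to 0.32, limma adjusted p = 0.999), and leaving out single mice moved it between -0.05 and 0.09. The interval leaves changes between -0.30 and 0.32 on the log2 scale undecided. CA2 markers, 4 genes of which Pcp4 was the most abundant, had sums of 3633 to 4486 in saline mice and 4944 to 7669 in ketamine mice, and their part in the Rgs14 values was not tested. Pcp4 alone separated the groups, at 2961 to 4215 and 4587 to 6973, while Amigo2, Map3k15 and Ntf3 overlapped. Of all genes tested, 5.69% were higher in every ketamine mouse.

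Rgs17 (ENSMUSG00000019775, chromosome 10 from 4424141 to 4520878), a regulator with a preference for Gz, had 2703, 2424 and 2085 normalized counts in saline mice 1, 6 and 10, against 3624, 2455 and 2042 in ketamine mice 3, 5 and 9. The highest and the lowest values were again in ketamine mice 3 and 9, as for Rgs8. The order of the ketamine mice was also that of the summed striatal markers, whose part was not tested. The log2 ratio of Rgs17 was 0.14 (SE 0.23, 95% interval -0.39 to 0.67, limma adjusted p = 0.999) and ranged from -0.09 without mouse 3 to 0.32 without mouse 9.

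**Figure D4:**
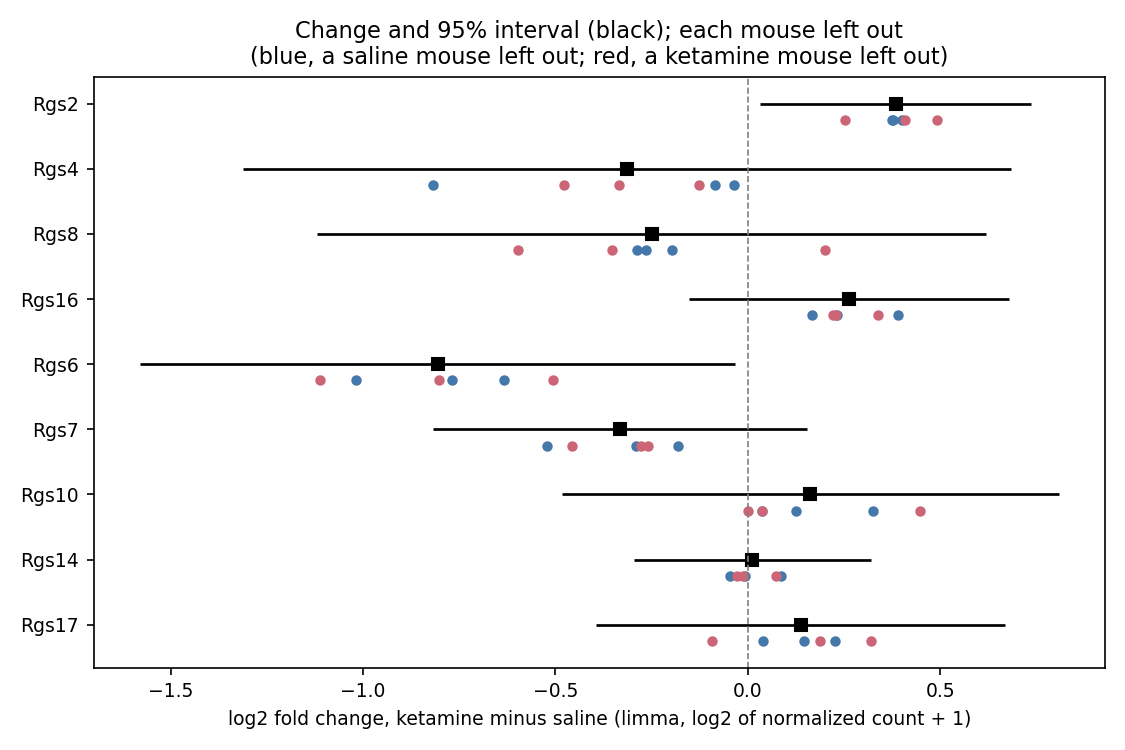
Log2 ratio of ketamine to saline (horizontal axis, named there as a log2 fold change), of the 9 genes with its 95% interval in black, and below it the value with each mouse left out, in blue where a saline mouse and in red where a ketamine mouse was left out. The intervals of Rgs2 (0.03 to 0.74) and Rgs6 (-1.58 to -0.03) leave out 0, and leaving out saline mouse 10 moves Rgs4 to -0.82.

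The mouse at the edge of its group was counted for the 9 genes and for all genes tested, and such counts say nothing particular to the 9 genes. Saline mouse 10 was the lowest saline mouse for 6 of the 9 (Rgs2, Rgs4, Rgs6, Rgs7, Rgs8 and Rgs17), against 44.1% of genes tested, and the highest for the other 3 (Rgs10, Rgs14 and Rgs16), against 39.3%. Ketamine mouse 9 was the lowest ketamine mouse for 4 of the 9 and the highest for 2, against 41.5% and 41.8% of genes tested. Ketamine mouse 3 was the highest for 4, against 26.1%. These shares describe 6 libraries, and values of a mouse share its dissection and library.

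Among the other 12 RGS genes, 9 were tested, of which limma called 0, edgeR 0 and DESeq2 1, with 2 at an unadjusted p under 0.05 by limma. Over all genes tested, the shares called were 0.0% by limma and edgeR and 1.13% by DESeq2. At an unadjusted p under 0.05, limma found 5.81% of all genes. By sign 4 were higher and 5 lower, with a median log2 ratio of -0.07. The gene called by DESeq2 was Rgs12, which encodes a large relative of Rgs14 that also binds Gi alpha subunits through a second domain. Rgs12 had 1073, 982 and 1073 normalized counts in saline mice 1, 6 and 10, against 1591, 1412 and 1571 in ketamine mice 3, 5 and 9. Every ketamine mouse was above every saline mouse, as for 5.69% of all genes tested. The log2 ratio of Rgs12 was 0.55 (SE 0.12, limma adjusted p = 0.38 and 0.0141 with DESeq2), between 0.50 and 0.60 with each mouse left out. Rgs9, the R7 regulator typical of striatal projection neurons, had 278, 252 and 305 normalized counts in the saline group against 3737, 2249 and 287 in ketamine mice 3, 5 and 9, a log2 ratio of 2.27 (SE 0.85, limma adjusted p = 0.788). Its ketamine values followed the order of the striatal marker sums, of which it is not a member, and its log2 ratio was 1.53 without mouse 3 and 3.38 without mouse 9. Rgs11, a further R7 gene, had 828 to 1291 normalized counts in saline mice and 552 to 1061 in ketamine mice, a log2 ratio of -0.56 (limma adjusted p = 0.951), which was -0.85 without ketamine mouse 5. Rgs5, named after its values were seen, was the only tested gene of these 12 with every ketamine mouse below every saline mouse, at 2493 to 3272 against 3555 to 3604 normalized counts (log2 ratio -0.28, limma adjusted p = 0.953, and -0.15 without ketamine mouse 9). The same held for 4.66% of all genes tested.

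Partners of RGS proteins were measured alongside. Of 7 tested, limma, edgeR and DESeq2 called 0, where DESeq2 called 1.13% of all genes. At an unadjusted p under 0.05, limma found 1, against 5.81% of all genes, and the median log2 ratio was -0.02. Gnb5, the beta subunit that R7 proteins need, had 3742, 3755 and 3007 normalized counts in saline mice 1, 6 and 10, against 4227, 3565 and 4438 in ketamine mice 3, 5 and 9, a log2 ratio of 0.22 (95% interval -0.14 to 0.58, limma adjusted p = 0.999). Its sign was opposite to that of Rgs6 and Rgs7, and without saline mouse 10 the log2 ratio of Gnb5 was 0.11. Rgs7bp, which anchors R7 complexes to the membrane, had a log2 ratio of -0.34 (95% interval -0.91 to 0.23, limma adjusted p = 0.999), with 7163 to 10609 normalized counts in saline and 5071 to 8633 in ketamine mice. Without ketamine mouse 9 the log2 ratio of Rgs7bp was -0.10. Gpsm1, another protein that binds Gi alpha subunits, had 1059 to 1281 in the saline group against 1765, 1797 and 4217 in ketamine mice 3, 5 and 9 (log2 ratio 0.99, limma adjusted p = 0.71 and 0.101 with DESeq2). Its highest value was in mouse 9, where olfactory bulb markers were highest and whose part was not tested, and without that mouse the log2 ratio of Gpsm1 was 0.58.

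The G proteins on which RGS proteins act showed no called alpha subunit. Of 12 alpha subunits tested, limma, edgeR and DESeq2 called 0, where DESeq2 called 1.13% of all genes. At an unadjusted p under 0.05, limma found 0, against 5.81% of all genes. By sign 6 were higher and 6 lower, and the median log2 ratio was 0.01. Gnaq, the alpha subunit that Rgs2 favours, had 7784 to 8920.0 normalized counts in saline mice and 6706 to 7466 in ketamine mice, with no overlap (log2 ratio -0.24, 95% interval -0.54 to 0.06, limma adjusted p = 0.969, exact permutation p = 0.1). Every ketamine mouse was below every saline mouse for 4.66% of all genes tested. Rgs2 and Gnaq thus had opposite signs, and neither passed the threshold. Gnai2 and Gnai3, of the Gi class, had log2 ratios of 0.21 and 0.26 (limma adjusted p = 0.999 each), and of 0.0924 and 0.0798 without ketamine mouse 9.

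Of 13 beta and gamma subunits tested, limma and edgeR called 0 and DESeq2 called 1, against 1.13% of all genes by DESeq2. At an unadjusted p under 0.05, limma found 3, against 5.81% of all genes. By sign 8 were higher and 5 lower, with a median log2 ratio of 0.20. DESeq2 called the gamma subunit Gng4, which had 1262, 1345 and 882 normalized counts in saline mice 1, 6 and 10, against 2787, 2656 and 7543 in ketamine mice 3, 5 and 9 (log2 ratio 1.74, SE 0.41, limma adjusted p = 0.401 and 0.00089 with DESeq2). The highest value was in mouse 9, where olfactory bulb markers were highest, and their part was not tested; with each mouse left out in turn, the log2 ratio of Gng4 lay between 1.25 (without mouse 9) and 2.0021 (without mouse 5). Gng2, a widely expressed gamma subunit, had 5617 to 6146 normalized counts in saline mice and 3564 to 4573 in ketamine mice, without overlap (log2 ratio -0.50, limma adjusted p = 0.579 and 0.142 with DESeq2). Of all genes tested, 4.66% were likewise lower in every ketamine mouse. Gng7, a gamma subunit of striatal neurons and one of the striatal markers above, had 12092, 7421 and 2567 in ketamine mice 3, 5 and 9 and 2231 to 3321 in saline mice.

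Channels and phospholipases driven by G proteins gave 0 called genes of 8 by limma, edgeR and DESeq2, where DESeq2 called 1.13% of all genes. At an unadjusted p under 0.05, limma found 0, against 5.81% of all genes. By sign 3 were higher and 5 lower, with a median log2 ratio of -0.33. Kcnj6 and Kcnj9, subunits of the potassium channels opened by beta-gamma subunits, had log2 ratios of -0.98 and -0.47 (95% intervals -2.09 to 0.13 and -1.10 to 0.15, limma adjusted p = 0.922 and 0.999). With single mice left out, Kcnj6 ranged from -1.45 without ketamine mouse 5 to -0.45 without ketamine mouse 9, and Kcnj9 from -0.73 without saline mouse 10 to -0.28 without saline mouse 1. Kcnj5, a rare subunit in cortex, was at 0 to 18.7 normalized counts in saline mice and at 6.59 to 97.9 in ketamine mice. Of 16 receptors coupled to Gi/o or Gq, limma and edgeR called 0 and DESeq2 called 1, against 1.13% of all genes by DESeq2. At an unadjusted p under 0.05, limma found 4, against 5.81% of all genes. By sign 7 were higher and 9 lower, with a median log2 ratio of -0.08. The receptor called by DESeq2 was Adra2a, the alpha-2A adrenergic receptor. Its levels were 328, 337 and 385 normalized counts in saline mice 1, 6 and 10, against 650.0, 751 and 863 in ketamine mice 3, 5 and 9 (log2 ratio 1.1003, SE 0.16, limma adjusted p = 0.173, DESeq2 adjusted p = 4.7e-06). Muscarinic receptors of the Gi/o and Gq classes had ratios of opposite sign. Chrm2, coupled to Gi/o, had 292 to 389.9 normalized counts in saline mice and 409 to 813 in ketamine mice, with a log2 ratio of 0.85 (limma adjusted p = 0.677). Chrm3, coupled to Gq, had 1011 to 1469 in saline and 334 to 924 in ketamine mice, with a log2 ratio of -1.10 (limma adjusted p = 0.677), which was -0.73 without ketamine mouse 9. For both receptors the groups did not overlap, as for 10.3% of all genes tested.

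Values of the remaining marker lists follow. GABAergic neuron markers (7 genes) had sums of 31279 to 36597 normalized counts in saline mice and 38461 to 56059 in ketamine mice. In that list Gad1, Gad2 and Slc32a1, which serve GABA synthesis and loading in all such neurons, were higher in every ketamine mouse, and the interneuron markers Pvalb (log2 ratio -1.20, DESeq2 adjusted p = 0.0321) and Sst (log2 ratio -0.18) were lower in every ketamine mouse. Astrocyte markers (5 genes) had sums of 25109 to 39065 in saline and 33737 to 36385 in ketamine mice, and endothelial markers (4 genes) of 4927 to 5862 and 5050.0 to 5244. Thalamic markers (3 genes) had sums of 476 to 1229 in saline and 499.6 to 873 in ketamine mice. None of these lists held a gene at 0. The GABAergic and CA2 sums did not overlap between the groups, and the sums of the astrocyte, endothelial and thalamic lists did. Of the CA2 markers, Pcp4 alone separated the groups.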

How the data were processed

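RNA Seq libraries, a library for each mouse, were made by the authors from total RNA of dissected PLc. Per the labels and the methods, paired-end reads were aligned to mm9 with TopHat2 2.0.11, counted per gene with HTSeq and normalized with DESeq2. The authors deposited a signal for every gene, that is, counts scaled by library size factors and rounded. Annotation, strand setting and filters are not given in the sources used here. All 6 sample columns were used, matched by mouse number, and groups came from the sample titles. Within rounding, 100.0% of the values in every library were whole multiples of what 1 read is worth, which gave back the reads, between 26273436 and 32643726 per library.

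Log2(normalized count + 1) was compared with limma 3.58.1 (R 4.3.3, with a variance trend, two-sided, Benjamini-Hochberg adjustment, threshold 0.05) over 16127 genes whose mean reached 10. Fold changes on this scale understate changes of low genes. Exact permutation tests over mice were two-sided. Replicates are separate mice. edgeR 4.0.16 and DESeq2 1.42.0 were run on the recovered reads as alternatives, beside other pseudocounts, filters and scalings and leaving out each mouse. The tests were tested on simulated reads with known 2-fold and 4-fold changes. All tools recovered most 4-fold changes, while limma and edgeR called none of the 2-fold ones and DESeq2 also called unchanged genes, so a count of 0 from limma or edgeR does not show that 2-fold changes were absent. Exon lengths and coordinates came from GENCODE M1 on mm9, and windows before gene starts from RefSeq (GRCm38.p6).

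The members, gene lists and tests were chosen with earlier results of these data known. Named genes are the 9 members, Rgs9, and in each pathway list the 3 genes with the smallest limma p and any called gene. Drd1 and Syndig1l were matched by the older symbols in the table.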

Additional observations from a re-analysis of the deposited data

How the results depend on the processing

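No member was called under any alternative run except 1, Rgs6, by DESeq2 without ketamine mouse 5 (log2 ratio -1.11, adjusted p = 0.0461), so that with single mice left out the number of members called lay between 0 and 1. DESeq2 fits with a mouse left out, or over all genes with a read, were chosen after seeing the data. Over all genes, limma called 0 and, with single mice left out, 0 to 1. DESeq2 called 182 over the same genes, 188 over all genes with a read, and with single mice left out 83 (without saline 1), 93 (saline 6), 501 (saline 10), 103 (ketamine 3), 274 (ketamine 5) and 437 (ketamine 9). Over 23 alternatives, Rgs2, Rgs4, Rgs6, Rgs7, Rgs10 and Rgs16 kept their sign in 23, Rgs8 and Rgs17 in 21 and Rgs14 in 15. The sign turned only where a mouse was left out. For Rgs8 the log2 ratio was 0.20 with limma and 0.23 with DESeq2 without ketamine mouse 9, and for Rgs17 it was -0.0944 with limma and -0.0928 with DESeq2 without ketamine mouse 3. For Rgs14 it was -0.0456 and -0.0434 without saline mouse 1, -0.0075 and -0.0044 without saline mouse 6, -0.0275 and -0.0229 without ketamine mouse 5 and -0.0124 and -0.0057 without ketamine mouse 9, limma before DESeq2. With limma and single mice left out, the ranges were -0.60 to 0.20 for Rgs8, -0.0456 to 0.0861 for Rgs14 and -0.0944 to 0.32 for Rgs17; the cause was not tested. No scaling turned a sign. At an unadjusted p under 0.05, the variance model without a trend left 0 of the members, leaving out saline mouse 1 or 6 or ketamine mouse 3 left 0, leaving out saline mouse 10 gave 3 (Rgs4, Rgs6 and Rgs7), leaving out ketamine mouse 5 gave 2 (Rgs2 and Rgs6) and leaving out ketamine mouse 9 gave 1 (Rgs2), with limma and with DESeq2 alike. No paired analysis was possible because the groups share no mouse numbers. Counting error of any member in a library was at most 6.65%, and there were 3 mice a group.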
